A study of Saccharomyces cerevisiae with 28 samples.

Results

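The genes described here encode proteins of the mitochondrial ribosome of budding yeast (Saccharomyces cerevisiae). They were chosen by a rule on names, with earlier results of these data known. The rule takes open reading frames (ORFs) whose standard name is MRPL, MRPS or RSM followed by a number. This rule gave 54 genes of the 6692 ORFs in the full deposited table. They comprise 34 genes of the large subunit and 20 of the small subunit. In the large subunit, 21 encode proteins with a counterpart in bacterial ribosomes and 13 encode proteins found only in mitochondria. The small subunit had 12 and 8 of each kind, with RSM22, a methyltransferase-like protein, counted among the 8.

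The mitochondrial ribosome translates the few proteins encoded by mitochondrial DNA, most of them core subunits of the respiratory chain and ATP synthase. Nearly all of its own proteins are encoded in the nucleus and imported. In budding yeast the mRNA-binding protein Puf3 recognises a short motif in the 3′ untranslated regions of many of these mRNAs. It promotes their decay in glucose medium and their localisation to, or translation at, mitochondria when cells respire.

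The study measured polyadenylated RNA in strains of the BY4741 background. Histone H3 was either wild type or carried the H3H113N change. Some also lacked CTR1, which encodes the high-affinity copper importer (dCtr1), and some lacked CCS1, which encodes the copper chaperone of superoxide dismutase (dCcs1). WT stands for the strain with neither change. The 28 libraries fall into 14 groups. Rich glucose medium (YPD) was used for WT, H3H113N, dCtr1 and H3H113N-dCtr1, with 2 libraries each. Rich medium with ethanol and glycerol (YPEG), which requires respiration, was used for WT and H3H113N, with 2 libraries each. Synthetic complete glucose medium (SC) was used for WT and H3H113N, with 3 libraries each, and for dCcs1 and H3H113N-dCcs1, with 2 each. SC without lysine (SC-lys) was used for dCcs1 and H3H113N-dCcs1, with 2 libraries each, and SC-lys with 75 µM copper sulphate for the same strains, with 1 library each. Cells in YPD or YPEG were diluted to an OD600 of 0.2 and harvested after 3 to 4 doublings. Those in SC were diluted to 0.05 and harvested after 5 doublings, and those in SC-lys were diluted to 0.4 and harvested after 24 h. Growth is labelled exponential, except that it is labelled very slow in SC-lys and in the H3H113N-dCcs1 library with copper. The labels say that time in culture often differed between strains, and do not say whether the libraries of a group came from separate cultures. The p-values therefore measure the spread between these libraries, which may be technical.

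Library totals ran from 1168159 to 6738018 counts. The deleted genes matched the labels: CTR1 had 0 or 1 counts in the 4 libraries of dCtr1 strains and at least 52 elsewhere, and CCS1 had 0 or 1 counts in the 10 libraries of dCcs1 strains and at least 106 elsewhere. Counts do not show the H3H113N substitution. In H3H113N libraries some whole chromosomes stood above the others, most often chromosomes II and V. Libraries of a group could differ in this: in H3H113N in SC, chromosome V stood 0.117 to 0.604 (log2) above the rest over the 3 libraries. Some of these shifts are given below beside genes they touch. WT in SC, replicate 3, stood apart from the other replicates of its group: its median level over 38 nuclear genes of the respiratory chain and ATP synthase was 359 RPKM (reads per kilobase of ORF, scaled to the library total), against 93.0 and 124. YPEG and SC libraries were made with one kit and the others with another, so kit and medium cannot be told apart between these sets.

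Of the 54 genes, 53 (98.1%) held the Puf3 motif TGTANATA on the transcribed strand within 200 bases after the stop codon. The motif stood in 843 of 5985 ORFs with such a window (14.1%). RSM22 was the gene without it. The sites below are those of the genes that rose most in YPEG in WT cells (MRPL4, MRPS16, MRPL28) and of the 7 called in a comparison of the H3H113N allele with its parent (MRPL17, RSM26, MRPS5, MRPS9, MRPL44, MRPL11, MRPL1), as read from the RefSeq sequence of assembly R64, 5′ to 3′ on the coding strand, with the motif in capitals. For the genes with 2 sites, MRPL28, MRPS5, MRPS16 and MRPL1, both are shown.
MRPL4, chrXII:1015472-1015491, plus strand: ctctccTGTAAATAtatata
MRPS16 first site, chrXVI:528886-528905, minus strand: atatgtTGTATATAtgtttt
MRPS16 second site, chrXVI:528845-528864, minus strand: cagactTGTAAATAatacat
MRPL28 first site, chrIV:1386542-1386561, plus strand: tcctgcTGTAAATAactgat
MRPL28 second site, chrIV:1386598-1386617, plus strand: attataTGTACATAgacata
MRPL17, chrXIV:171339-171358, minus strand: atcacaTGTAAATAtcatta
RSM26, chrX:619116-619135, plus strand: atatacTGTAAATAgtttta
MRPS5 first site, chrII:722315-722334, plus strand: atactaTGTACATAcacacg
MRPS5 second site, chrII:722377-722396, plus strand: aataccTGTAAATAtctcaa
MRPS9, chrII:536229-536248, plus strand: tattccTGTAAATAaagtta
MRPL44, chrXIII:720859-720878, minus strand: caagccTGTAAATAatatat
MRPL11, chrIV:99272-99291, plus strand: caatcaTGTACATAcatcat
MRPL1 first site, chrIV:682673-682692, minus strand: tttaatTGTATATAtatata
MRPL1 second site, chrIV:682624-682643, minus strand: aaatcaTGTACATAcaaagt

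The sites of the mitoribosomal genes differed in form from the same motif elsewhere. A cytosine at the second base before the motif was counted where any site of a gene had it. Above, it stands in MRPL4, MRPL17, MRPS9, MRPL44, MRPL11 and the second sites of MRPS16, MRPS5 and MRPL1. It was found in 43 of the 53 genes (81.1%), against 210 of 784 other ORFs with the motif and that base in the window (26.8%). Genes with more sites have more chances to be counted, and the share among first sites was not computed. The variable base of the first site was A in 25 of 53 genes (47.2%) and in 216 of 790 other ORFs (27.3%). More than 1 site was present in 12 of 53 (22.6%) and in 60 of 790 (7.59%). The first site began a median of 54 bases after the stop codon, with a range of 8 to 139, against a median of 59.5 in other ORFs. These are descriptions of sequence, with no test, and a match is not evidence of binding.

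**Figure D1:**
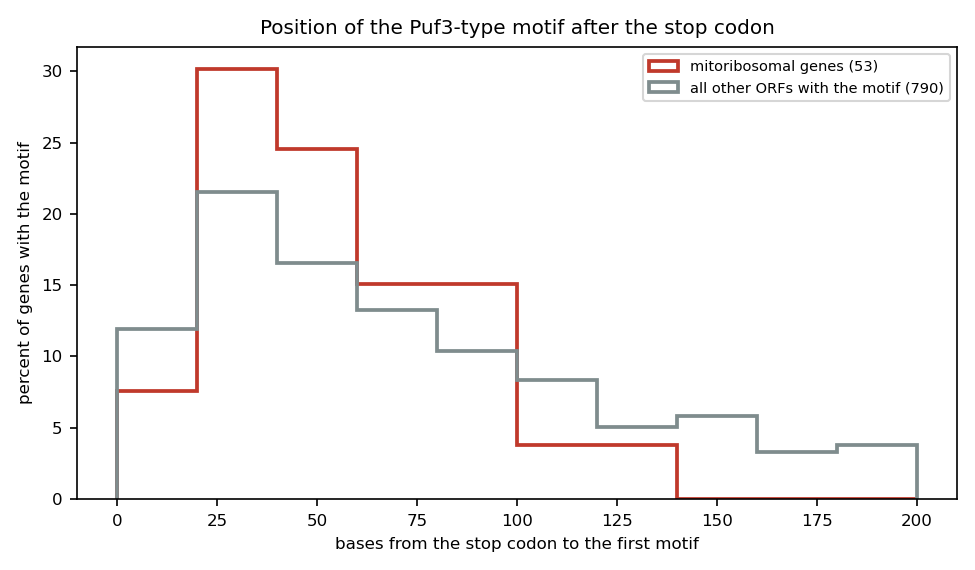
The histogram shows, for the 53 mitoribosomal genes and the 790 other ORFs with TGTANATA, the percent of genes (vertical axis) by the distance in bases from the stop codon to the first motif (horizontal axis, bins of 20). The mitoribosomal genes lie between 8 and 139 bases.

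Other genes of mitochondrial translation also held the motif, and respiratory genes held it about as often as all ORFs. It stood in 23 of 25 mitoribosomal genes with other names (92.0%), 15 of 16 mitochondrial aminoacyl-tRNA synthetase genes (93.8%) and 22 of 28 genes of translation factors, activators and ribosome assembly (78.6%). It stood in 5 of 38 genes of the respiratory chain and ATP synthase (13.2%) and in 6 of 138 cytosolic ribosomal protein genes (4.35%). The promoter element AATTTT, the rapid growth element of yeast ribosome genes, was searched on both strands from 250 bases before to 50 bases after the start codon. It was found in 19 of 54 mitoribosomal promoters (35.2%) and in 3096 of 5985 of all ORFs (51.7%).

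The mitoribosomal genes were expressed at moderate levels. Over the 7 WT libraries the median of their mean levels was 85.4 RPKM, against 46.0 RPKM for all tested ORFs and 1585 RPKM for the 138 cytosolic ribosomal protein genes. The highest member was MRPS12, a protein of the decoding site of the small subunit, at 325 RPKM on average, with a lowest value of 119, a median of 348 and a highest of 578. MRPL37 (177 RPKM) and MRPS9 (142 RPKM) followed. The lowest members were MRPL24 (54.1 RPKM), MRPL32 (48.5 RPKM) and RSM22 (33.8 RPKM), and the highest mean was 9.61 times the lowest. The lowest count of any member in any library was 21. A pair of members overlap other ORFs, MRPL19 with YNL184C and MRPL51 with YPR099C, and their counts may include reads of the overlapping ORF because strand was not used.

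The level of the group was highest in YPEG. The median over the 54 genes was 46.5 and 46.6 RPKM in the WT libraries in YPD, and 58.1, 75.6 and 99.8 RPKM in SC. In YPEG it was 132 and 152 RPKM for WT and 125 and 121 RPKM for H3H113N, above every library in the other media. The 3 WT libraries in SC spread over a range of levels that most groups did not show, and H3H113N in SC did likewise, at 60.7, 96.0 and 95.6 RPKM. The 54 genes took 0.166% to 0.169% of all counts in WT in YPD and 0.507% to 0.566% in WT in YPEG.

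**Figure D2:**
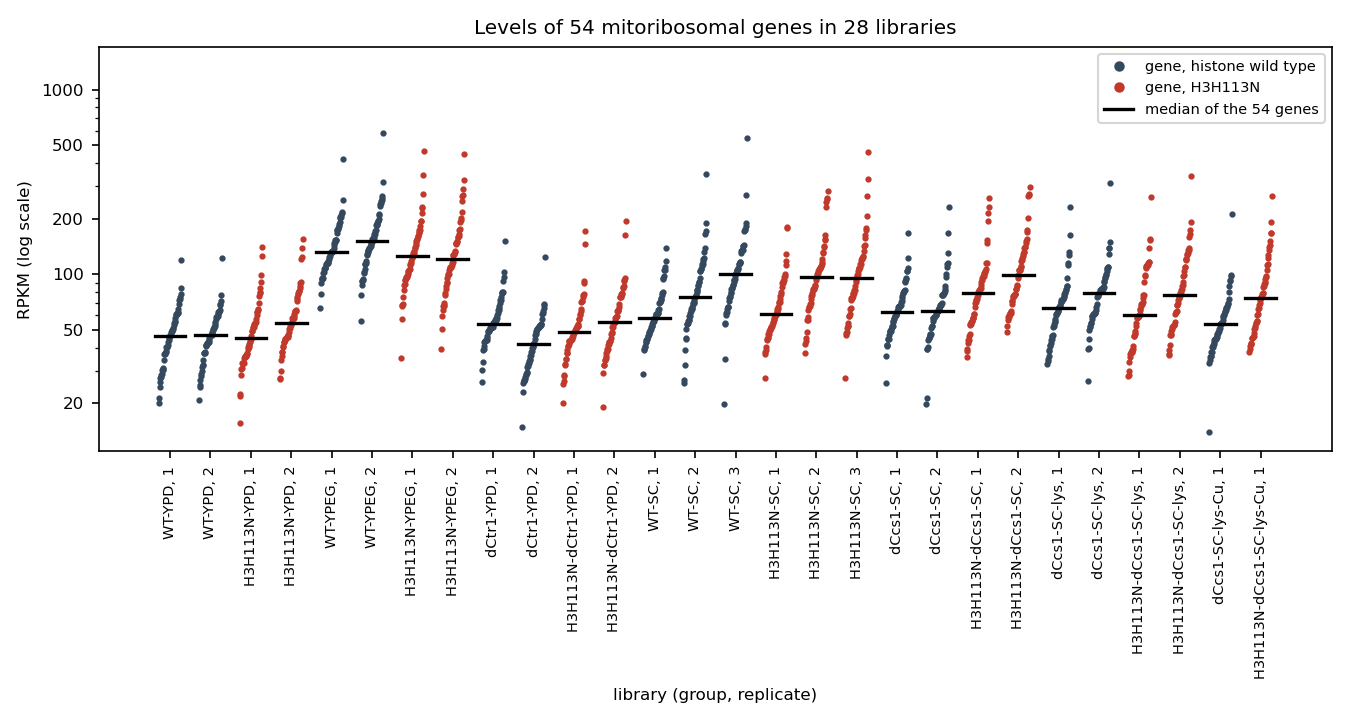
Each dot is the RPKM (vertical log axis) of 1 of the 54 genes in 1 of the 28 libraries (horizontal axis), with H3H113N libraries in red and bars at the median of the genes. The 4 YPEG libraries have medians of 121 to 152 RPKM and the WT libraries in YPD 46.5 and 46.6 RPKM.

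The YPEG and SC libraries share a kit, so their difference could be tested, although rich and synthetic media and the starting densities differ too. In WT cells all 54 mitoribosomal genes had a positive log2 fold change in YPEG against SC, with a median of 0.69, while the median over all 6592 tested ORFs was -0.07 and 2956 of them were positive. In 47 of the 54, both YPEG libraries had a higher RPKM than all 3 SC libraries (24.5% of all ORFs), and in 0 of them lower (8.97%). By edgeR's quasi-likelihood test with Benjamini-Hochberg adjustment over all tested ORFs at 0.05 (called genes below), 23 of the 54 rose and 0 fell. Of all ORFs, 11.5% were called, 6.75% higher and 4.72% lower. All classes took part: 8 of 21 shared and 7 of 13 mitochondria-specific genes of the large subunit rose, and 4 of 12 and 4 of 8 in the small subunit.

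MRPL4 (YLR439W, chrXII:1014491-1015450), a large-subunit protein near the exit of the nascent chain, rose the most. It had 193 and 174 RPKM in YPEG and 43.0, 64.6 and 84.5 RPKM in SC. The groups do not overlap, and SC replicate 3 lies nearest to YPEG. Its log2 fold change was 1.34 ± 0.25 (SE, 2 and 3 libraries; edgeR adjusted p = 0.00187).

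MRPS16, a small-subunit protein with a bacterial counterpart, had 204 and 267 RPKM in YPEG and 51.5, 104 and 117 RPKM in SC, without overlap, which is 1.22 ± 0.29 on the log2 scale (SE, edgeR adjusted p = 0.0104). MRPL28, a mitochondria-specific protein of the large subunit, had 134 and 161 RPKM in YPEG and 44.3, 53.96 and 78.7 RPKM in SC, for 1.14 ± 0.33 (SE, edgeR adjusted p = 0.0306). RSM22, the gene without the Puf3 motif, was called as well, at 65.7 and 56.1 RPKM against 28.7, 25.8 and 19.9 RPKM, with 1.09 ± 0.24 (SE, edgeR adjusted p = 0.00655). At the other end, MRPL33, a large-subunit protein with a bacterial counterpart, had a log2 fold change of 0.22 ± 0.29 and RSM7 one of 0.06 ± 0.36 (SE), and neither passed the test. MRPS12, the most abundant member, spread from 138 to 547 RPKM within WT in SC and did not pass (0.37 ± 0.44, SE).

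H3H113N cells showed the same direction. Of the 54 genes, 53 had a positive log2 fold change in YPEG against SC, with a median of 0.57 (all ORFs, -0.05), and 11 rose and 0 fell (10.9% of all ORFs called, 6.13% higher and 4.79% lower). The genes called in both strains numbered 8, which is 34.8% of the WT calls and 72.7% of the H3H113N calls. The same overlap over all ORFs was not computed, so these shares are not set against a background. RSM23, a GTP-binding protein of the small subunit, had 130 and 108 RPKM in YPEG and 43.9, 58.8 and 54.1 RPKM in SC, for a difference of 1.21 ± 0.20 (log2, SE, edgeR adjusted p = 0.00103). MRPL17, a mitochondria-specific protein of the large subunit, had 93.1 and 79.2 RPKM against 37.2, 37.4 and 46.8 RPKM, for 1.09 ± 0.19 (SE, edgeR adjusted p = 0.00133), and MRPS16 had 0.996 ± 0.29 (SE, edgeR adjusted p = 0.0382).

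The difference between the strains in this response was itself tested. In 0 of the 54 genes did the H3H113N effect in YPEG pass the test against that in SC (edgeR interaction, 0.0152% of all ORFs called). At an unadjusted p under 0.05 there was 1 member, beside 353 of all 6592 ORFs. DESeq2 and limma also called 0. That member was RSM22 (-0.89 ± 0.35, SE, edgeR adjusted p = 0.930), and MRPL17 was the nearest to a call in the positive direction (0.44 ± 0.27, SE, edgeR adjusted p = 0.949).

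The count of called genes depended on single libraries. In WT it was 9 without YPEG replicate 1, 2 without YPEG replicate 2, 8 without SC replicate 1, 10 without SC replicate 2 and 35 without SC replicate 3, the library with high respiratory gene levels. It was 0 with the spread estimated from these 5 libraries alone. In H3H113N it was 1 and 2 without YPEG replicates 1 and 2, and 2, 3 and 14 without SC replicates 1, 2 and 3. In these omissions at least 50 of the 54 genes stayed positive in WT and at least 52 in H3H113N. The share of all ORFs called in each of these fits is not given here, so the counts have no background beside them.

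Respiratory genes rose as well, with larger fold changes. Of 38 nuclear genes of the respiratory chain and ATP synthase, 33 rose in WT in YPEG against SC and 1 fell, with a median log2 fold change of 2.13. COX7, a subunit of cytochrome c oxidase, rose the most (2.96 ± 0.35, SE, edgeR adjusted p = 2.61e-05). COX5B, the hypoxic isoform of another subunit, fell (-3.44 ± 0.99, SE, edgeR adjusted p = 0.0314). The 25 tested mitoribosomal genes with other names had a median of 0.80, with 9 higher and 0 lower, and the 138 cytosolic ribosomal protein genes one of -0.53, with 0 higher and 7 lower. PUF3 itself rose in WT, from 31.5 to 38.5 RPKM in SC to 112.9 and 126.8 RPKM in YPEG (1.59 ± 0.24, SE, edgeR adjusted p = 0.000276). HAP4, the activating subunit of the main respiratory transcription complex, had 1.27 ± 0.58 (SE, edgeR adjusted p = 0.173).

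Other ORFs with the Puf3 motif had a median change near 0. Of 789 such ORFs, 82 rose in WT in YPEG against SC (10.4%) and their median log2 fold change was 0.09. Of 5101 ORFs without the motif, 312 rose (6.12%) and the median was -0.09. VAR1, the mitoribosomal protein encoded in mitochondrial DNA, was at 0 or near it throughout, with at most 1.16 RPKM in any library, in RNA selected by poly(A) tails.

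**Figure D3:**
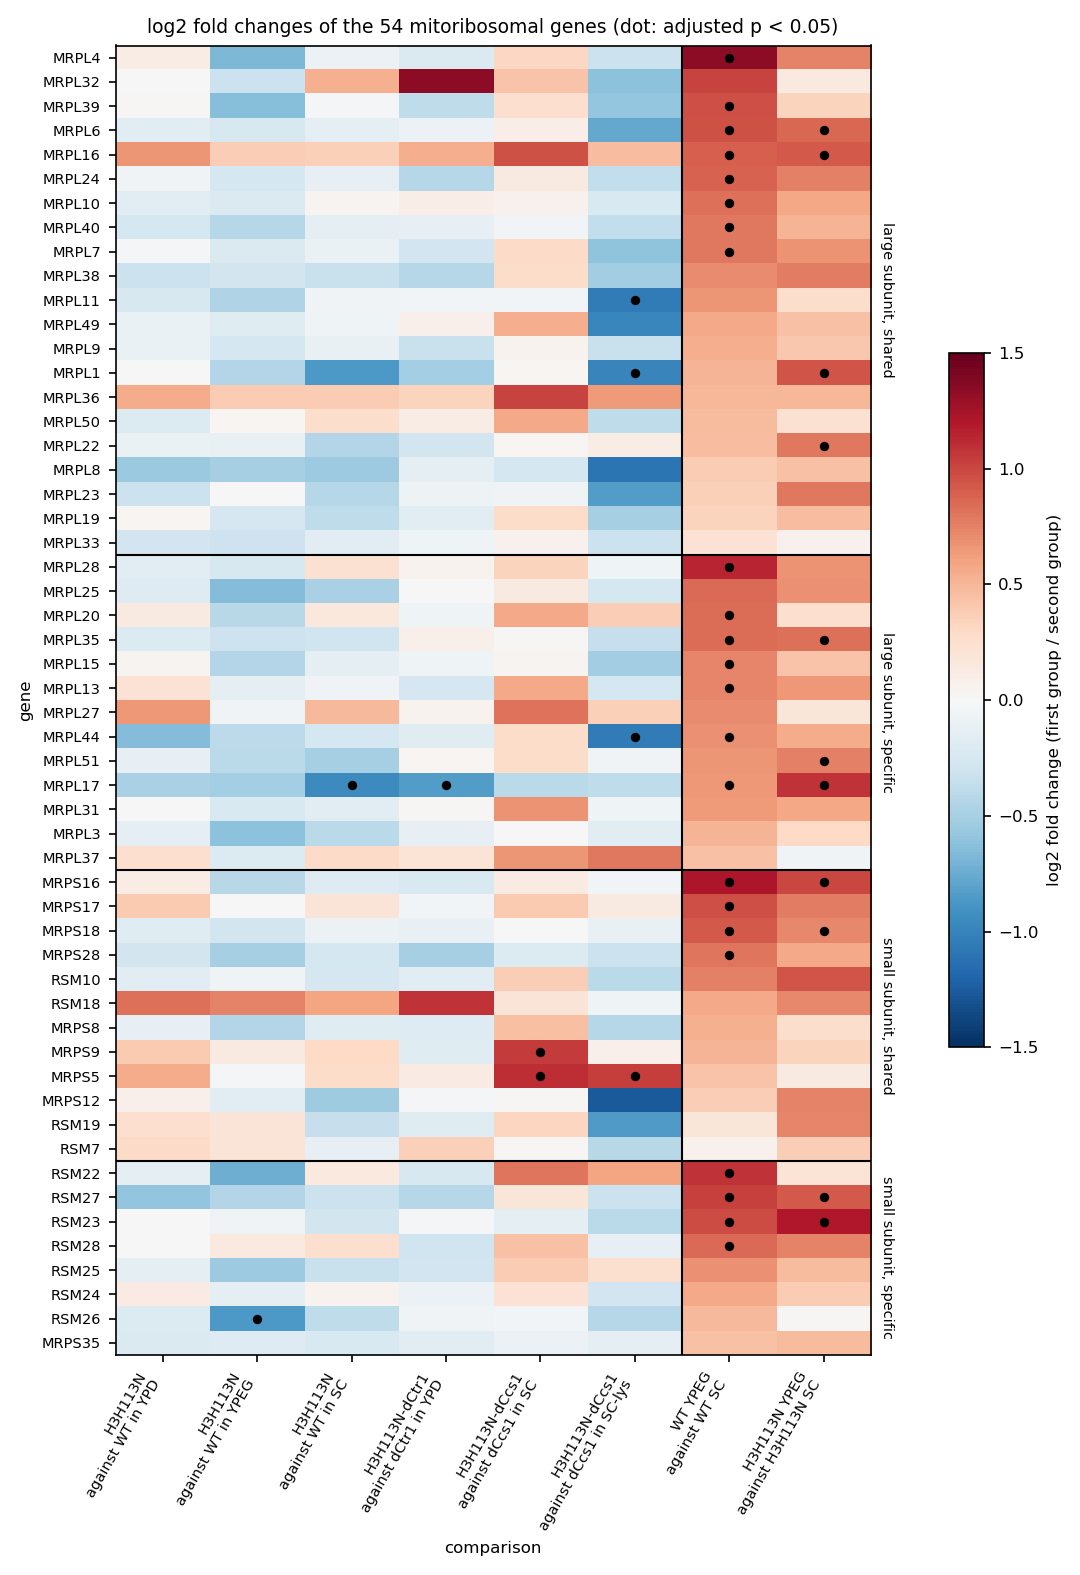
Colours give the log2 fold change of each of the 54 genes (rows, by subunit and class) in 8 comparisons (columns), with a dot where the adjusted p is under 0.05. The YPEG against SC columns hold 23 and 11 called genes, all higher, and the 6 columns of the H3H113N allele hold 9 calls in all.

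**Figure D4:**
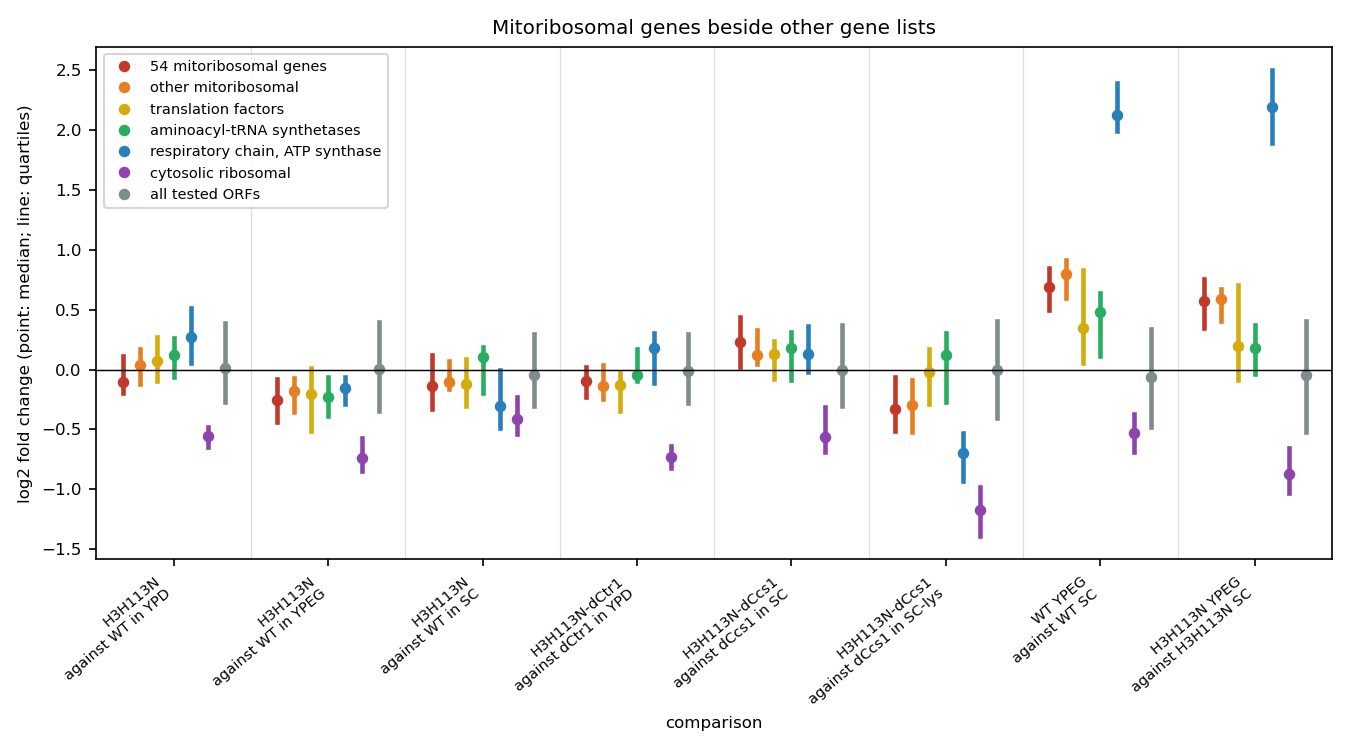
Points are medians and lines the quartiles of log2 fold changes (vertical axis) over 7 gene lists in 8 comparisons (horizontal axis). In WT in YPEG against SC the mitoribosomal genes have a median of 0.69, the respiratory genes 2.13 and the cytosolic ribosomal genes -0.53.

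Few mitoribosomal genes were called between H3H113N and its parent within a medium. Few of all ORFs were called either, from 1.03% in YPEG to 10.7% with dCcs1 in SC-lys. Of the 54 genes, 47 were called in 0 of the 6 comparisons, 5 in 1 and 2 in 2, and no gene was called in more. The same count over all ORFs was not made. In YPD, 0 members were called (1.24% of all ORFs), and DESeq2 and limma called 0 as well. At an unadjusted p under 0.05 (edgeR) there were 6 members, beside 828 of all 6592 ORFs. The median log2 fold change there was -0.10, and 0.10 with library totals, 0.03 without WT replicate 2 and 0.10 without H3H113N replicate 1. The members nearest to a call in YPD were MRPL44 (-0.66 ± 0.21, SE, edgeR adjusted p = 0.171) and RSM18 (0.82 ± 0.29, SE, edgeR adjusted p = 0.213). RSM18 lies on chromosome V, whose ORFs had a median of 0.51 in this comparison, and it had 0.32 with chromosomes centred.

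In YPEG, 1 member fell and 0 rose (1.03% of all ORFs called, 0.925% higher and 0.106% lower), and 45 of the 54 log2 fold changes were negative, with a median of -0.26. The median was -0.42 without WT replicate 1, -0.17 without H3H113N replicate 2, and -0.10 without WT replicate 2, when 18 of the 54 genes were positive. In RPKM, both H3H113N libraries lay below both WT libraries for 30 members (25.4% of all ORFs) and above them for 4 (31.4%). The gene that fell was RSM26 (YJR101W, chrX:618234-619034), a small-subunit protein related in fold to superoxide dismutases. It had 57.5 and 59.3 RPKM in H3H113N and 94.0 and 114 RPKM in WT, with no overlap. The log2 fold change was -0.86 ± 0.20 (SE, 2 libraries each; edgeR adjusted p = 0.0427). The call was lost when any 1 of the 4 libraries was left out, when libraries were scaled to their totals, with limma and with chromosomes centred, and the log2 fold change then ran from -1.04 to -0.66.

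In SC, 1 member fell and 0 rose (1.59% of all ORFs called, 1.20% higher and 0.394% lower). The median was -0.14, and it was 0.08 with library totals and 0.06 without WT replicate 3. MRPL17 (YNL252C, chrXIV:171441-172286) had 37.2, 37.4 and 46.8 RPKM in H3H113N and 63.97, 64.96 and 74.04 RPKM in WT. All H3H113N libraries lay below all WT libraries. The log2 fold change was -0.95 ± 0.17 (SE, 3 libraries each; edgeR adjusted p = 0.00889), and -0.96 with the replicate number as a block in these 2 groups. The call was lost without H3H113N replicate 2 (-0.84) and with the spread estimated from these 6 libraries alone (-0.96). In H3H113N-dCtr1 against dCtr1 in YPD, 1 member fell and 0 rose (2.18% of all ORFs called, 1.81% higher and 0.379% lower), and it was again MRPL17, at 25.5 and 32.2 RPKM against 53.3 and 37.8 RPKM (-0.84 ± 0.20, SE, edgeR adjusted p = 0.0377). That call was lost when any 1 of its 4 libraries was left out, with library totals, with limma and with chromosomes centred. Library totals instead gave 2 members higher and 0 lower, and limma 1 higher and 0 lower.

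MRPL17 was lower on average in H3H113N in each of the 6 comparisons, by log2 fold changes of -0.49 in YPD, -0.51 in YPEG, -0.95 in SC, -0.84 with dCtr1, -0.41 with dCcs1 in SC and -0.38 with dCcs1 in SC-lys. The values of the 2 groups overlapped in the last of these. MRPL8, MRPL11, MRPL40, MRPS18, MRPS28, MRPS35 and RSM26 were also lower in all 6, and MRPL16 and MRPL36 were higher in all 6. How many of all ORFs kept 1 direction in this way was not computed. Levels of MRPL17 in dCtr1 and dCcs1 strains did not pass the test against WT (-0.09 ± 0.20 and 0.02 ± 0.19, SE).

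The dCcs1 strains gave opposite medians in the 2 media. In SC, 44 of the 54 genes were positive in H3H113N-dCcs1 against dCcs1, the median was 0.23, and 2 rose and 0 fell (1.24% of all ORFs called, 1.02% higher and 0.228% lower). The median was 0.11 without H3H113N-dCcs1 replicate 2, when 34 genes were positive, and 0.45 with library totals. The 2 that rose were MRPS5 and MRPS9, small-subunit proteins with bacterial counterparts. MRPS5 (YBR251W, chrII:721390-722313) had 103 and 128 RPKM against 44.8 and 47.6 RPKM (1.11 ± 0.26, SE, edgeR adjusted p = 0.0400). MRPS9 (YBR146W, chrII:535260-536096) had 214 and 270 RPKM against 104 and 96.7 RPKM (1.05 ± 0.24, SE, edgeR adjusted p = 0.0362). Both lie on chromosome II, whose ORFs stood 0.69 ± 0.01 (SD, n = 2, log2) above the rest in these H3H113N-dCcs1 libraries. After each chromosome was centred the values were 0.42 and 0.35 and neither was called, and neither was called without any 1 of the 4 libraries. Chromosomes IX and XI, with 1 and 5 members, stood 0.25 ± 0.05 and 0.33 ± 0.05 above the rest (SD, n = 2, log2). With all chromosomes centred, 48 of the 54 genes were positive, with a median of 0.21.

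In SC-lys, 43 of the 54 genes were negative, the median was -0.33, and 1 rose and 3 fell (10.7% of all ORFs called, 5.16% higher and 5.57% lower). The median was -0.12 without dCcs1 replicate 2, when 19 genes were positive, and -0.18 without H3H113N-dCcs1 replicate 1. With chromosomes centred it was -0.27, and 8 genes were positive. In these H3H113N-dCcs1 libraries chromosomes II, IX and XI stood 0.71 ± 0.02, 0.29 ± 0.08 and 0.22 ± 0.01 above the rest (SD, n = 2, log2). Chromosome II holds 6 members, MRPS5 among them. MRPS5 again was the one that rose, at 98.1 and 121 RPKM against 35.9 and 50.0 RPKM (1.04 ± 0.25, SE, edgeR adjusted p = 0.0131), and it was 0.33 and not called with chromosomes centred. MRPL44, a mitochondria-specific protein of the large subunit (YMR225C, chrXIII:720960-721403, with 2 coding exons), had 46.5 and 50.7 RPKM against 79.4 and 83.1 RPKM (-1.05 ± 0.21, SE, edgeR adjusted p = 0.00406). MRPL11, of the base of the ribosomal stalk, had 39.2 and 41.2 RPKM against 72.3 and 62.1 RPKM (-1.05 ± 0.27, SE, edgeR adjusted p = 0.0196). MRPL1, of the stalk at the tRNA exit site, had 38.1 and 53.2 RPKM against 53.5 and 92.1 RPKM (-0.99 ± 0.30, SE, edgeR adjusted p = 0.0442).

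The calls in SC-lys depended on scaling and on single libraries. MRPL11 was not called without any 1 of the 4 libraries, MRPL1 without dCcs1 replicate 2 or either H3H113N-dCcs1 library, MRPL44 without H3H113N-dCcs1 replicate 1, and MRPS5 without dCcs1 replicate 1 or H3H113N-dCcs1 replicate 2. When libraries were scaled to their totals, as the RPKM values are, none of the 3 that fell was called, and the median of the 54 genes was -0.02 while that of all ORFs was 0.30. The members stood below the median of all ORFs by 0.32 under either scaling. In the same comparison 85 of 138 cytosolic ribosomal protein genes fell and 0 rose, with a median of -1.17, and 4 of 38 respiratory genes fell and 0 rose, with a median of -0.70. The part of slow growth in these values was not tested.

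The change between the dCcs1 media was tested as an interaction. The H3H113N effect in SC-lys minus that in SC was negative for 51 of the 54 genes, with a median of -0.48 (all ORFs, -0.04). None of the 54 was called (edgeR, 0.0455% of all ORFs called). An unadjusted p under 0.05 was reached by 10 of them, beside 322 of all 6592 ORFs. MRPL44 was the nearest to a call (-1.33 ± 0.30, SE, adjusted p = 0.303), and among the 3 positive genes it was MRPL37 (0.12 ± 0.46, SE). DESeq2 and limma also called 0. The interaction of H3H113N with dCtr1 in YPD had 0 calls among the members (0.00% of all ORFs called). Its unadjusted p was under 0.05 for 1 member, beside 149 of all 6592 ORFs. There MRPL32, on chromosome III, had 1.34 ± 0.50 (SE), where the ORFs of that chromosome had a median of 1.03. MRPS9, on chromosome II, had -0.58 ± 0.33 (SE), where the chromosome's median was -0.33.

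Averaged over the 6 comparisons, H3H113N libraries had 6 of the 54 genes higher and 8 lower (33.8% of all ORFs called, 18.5% higher and 15.2% lower). With library totals the split was 10 higher and 1 lower, and with limma on RPKM 9 higher and 1 lower, each sharing 7 genes with the 14. All 6 that rose, RSM18, MRPL16, MRPL36, MRPS5, MRPL27 and MRPS9, lie on chromosome II or V. The 6 members on chromosome II had a median of 0.45 and the ORFs of that chromosome 0.47. RSM18 is the only member on chromosome V and had 0.56 ± 0.11 (SE), where the chromosome's median was 0.40. MRPL32, the only member on chromosome III, had 71.8 and 92.9 RPKM in H3H113N-dCtr1 and 30.5 and 26.3 RPKM in dCtr1 (1.34 ± 0.35, SE, edgeR adjusted p = 0.0520), in libraries where that chromosome stood 1.09 ± 0.02 (SD, n = 2, log2) above the rest.

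With each chromosome centred, 0 members rose and 7 fell in the average, and 6 of these 7 were also called before centring. Of all ORFs, 26.7% were then called in either direction. Their split into higher and lower is not given here, so the 7 have no matching share. The median over the members was then -0.08, against -0.14 before centring. The largest fall was that of MRPL17 (-0.60 ± 0.08, SE, edgeR adjusted p = 3.21e-05; -0.51 ± 0.08 centred, adjusted p = 0.000255). MRPL8, a large-subunit protein with a bacterial counterpart, had -0.51 ± 0.14 (SE, edgeR adjusted p = 0.00773), and -0.46 ± 0.13 centred. MRPL1 had -0.46 ± 0.12 (SE, edgeR adjusted p = 0.00734), and -0.37 ± 0.12 centred. MRPL44, MRPS28 and RSM26 also kept their calls, MRPL38 was added, and MRPL11 and RSM27 were no longer called. With libraries scaled to their totals, the median over the members in the average turned from -0.14 to 0.06 while that of all ORFs moved from 0.00 to 0.20. MRPL8 (-0.32) and MRPL1 (-0.27) were then not called.

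**Figure D5:**
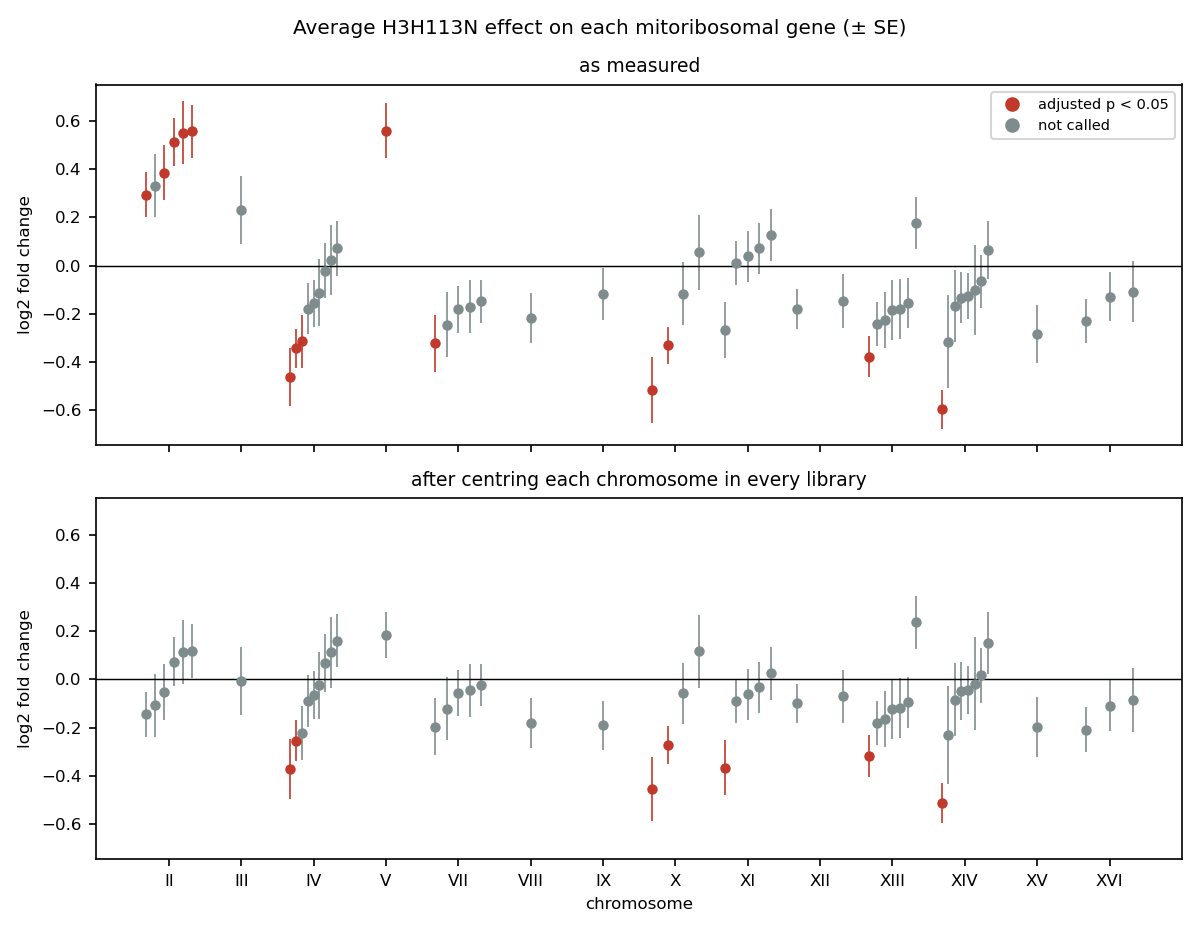
Each point is the average H3H113N effect on 1 of the 54 genes (log2 fold change ± SE, vertical axis) by chromosome (horizontal axis), as measured above and with every chromosome centred below, with called genes in red. The 6 called higher all lie on chromosomes II and V, and 0 are called higher below.

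Deletion of the copper genes alone changed no mitoribosomal gene past the threshold. In dCtr1 against WT in YPD, 0 members were called by edgeR (0.0455% of all ORFs). At an unadjusted p under 0.05 there were 0 members, beside 207 of all 6592 ORFs. The median over the members was 0.03, or -0.09 without dCtr1 replicate 1 and -0.005 without WT replicate 1. Of all ORFs, 0.0303% were called higher and 0.0152% lower. MRPL24 (0.43 ± 0.31, SE) and MRPS28 (-0.28 ± 0.21, SE) were the nearest to a call in each direction. In dCcs1 against WT in SC, 0 members were called (0.0152% of all ORFs). At an unadjusted p under 0.05 there was 1 member, beside 144 of all 6592 ORFs. The median there was -0.27 and 48 of the 54 genes were negative, beside a median of -0.02 over all ORFs. Without WT replicate 3, the library with high respiratory gene levels, the median was -0.06 and 22 genes were positive, and without WT replicate 1 it was -0.41. The level of the 54 genes was 62.7 and 62.9 RPKM in dCcs1, within the range of the 3 WT libraries. MRPS5 (-0.52 ± 0.24, SE) and MRPL11 (0.10 ± 0.26, SE) were the nearest to a call in each direction, both with an edgeR adjusted p that rounds to 1. DESeq2 and limma called 0 in both comparisons.

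Added copper gave different values in the 2 strains, with 1 library each and so no test. Growth of dCcs1 is labelled exponential with copper and very slow without it, and that of H3H113N-dCcs1 very slow in both. In dCcs1, the ratio of the level with copper to the mean of the 2 libraries without it had a median of 0.755 over the 54 genes, beside 0.828 over all ORFs with a ratio. Of the 54, 8 were more than 1.5-fold lower (28.3% of all ORFs) and 0 more than 1.5-fold higher (6.03%). In H3H113N-dCcs1 the median ratio was 0.997, beside 0.870 over all ORFs. There 2 genes were more than 1.5-fold higher (4.01% of all ORFs) and 0 lower (16.6%), with MRPL49 at 65.8 RPKM against 28.1 and 39.1 RPKM. RSM22 had the lowest ratio in both strains, at 13.9 RPKM against 32.5 and 26.6 RPKM in dCcs1 and 39.6 RPKM against 57.9 and 52.7 RPKM in H3H113N-dCcs1.

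Media prepared with different kits were set side by side without a test. The ratio of mean levels in YPEG to YPD in WT had a median of 3.14 over the 54 genes and 1.48 over all ORFs, with the lowest for MRPL33 (1.30) and the highest for MRPL39 (6.58). In H3H113N the medians were 2.50 and 1.32. SC against YPD in WT gave 1.68 and 1.32. SC-lys against SC gave 1.11 in dCcs1, where the median of all ORFs was 1, and 0.863 and 1.05 in H3H113N-dCcs1.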

How the data were processed

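The authors deposited whole-number read counts and RPKM values of 6692 ORFs in 28 libraries of polyadenylated RNA. Per the submitters' processing notes, TopHat2 2.0.9 and the R64 (sacCer3) build were used; the counting tool is not given in the sources used here, and per the labels strand was not used. The authors' RPKM equalled counts divided by ORF length and library total. The deposited exon lengths entered only that check. The 6592 ORFs averaging 1 RPKM or more, among them all 54 members, were tested with edgeR 4.0.16 (R 4.3.3) on the deposited counts: TMM scaling, 1 mean per group over 26 libraries of 12 groups, quasi-likelihood test, Benjamini-Hochberg adjustment per comparison. Fold changes are TMM-scaled and RPKM scaled to totals, so their directions can differ for small changes. The coefficient of variation between libraries was 29.5%. SE is the fold change over the root of F.

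Alternatives were library totals, median-ratio scaling, other filters, DESeq2 1.42.0, limma 3.58.1 on log2(RPKM + 1) and log2(RPKM + 0.1), the compared groups alone, a replicate block, chromosomes centred in every library, and each library left out. The main test used no pairs. WT and H3H113N libraries in SC with the same number deviated together (correlations 0.521, 0.365 and 0.717). A block of these numbers was therefore run as a further alternative, chosen by the data and not the labels. The 2 copper groups entered no test.

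Members and lists were chosen with earlier results of these data known. Named genes were the 3 most changed called members in each direction, or where none was called the one with the smallest adjusted p in each direction (ties broken by unadjusted p, a detail settled after values were seen), the highest and lowest in level, and overlapping genes. HAP4, MRPL33, RSM7, MRPL49 and, for YPEG against SC, RSM22 and MRPS12 were added after their values were seen. Symbols came from the authors' smaller table; sequences came from RefSeq assembly R64, whose starts equalled the authors' for 5375 of 5377 matched ORFs. Code was tested on simulated data.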

Additional observations from a re-analysis of the deposited data

How the results depend on the processing

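Counts of called members moved as follows. H3H113N against WT in YPEG (1 called) gave 0 with library totals, limma and centred chromosomes, 2 with its groups alone and 0 to 0 without single libraries. In SC (1), its groups alone gave 0, the replicate block within medium 2, a block in these groups alone, chosen after seeing the data, 1, and omissions 0 to 2. With dCtr1 (1), library totals gave 2 (both higher, where the call was lower), limma 1 (higher), the filter at RPKM 5 gave 2, DESeq2 3, its groups alone 0, the replicate block 3, centring 0 and omissions 0 to 0. With dCcs1 in SC (2), its groups alone gave 0, centring 0 and omissions 0 to 0. In SC-lys (4), library totals gave 1, DESeq2 7, limma 1 with either pseudocount, its groups alone 0, the replicate block 9, centring 1 and omissions 1 to 2. The average (6 higher, 8 lower) gave 10 and 1 with library totals, 9 and 1 with limma, 7 in all with centring and 12 to 18 with omissions. WT in YPEG against SC (23) gave 0 with its groups alone and 2 to 35 with omissions. H3H113N in YPEG against SC (11) gave 3 with library totals, 19 with DESeq2, 4 with limma, 4 with its groups alone, 25 with the replicate block and 1 to 14 with omissions. The cause of these moves was not tested. With centring, the share of all ORFs called was 0.743% in YPEG, 0.501% with dCtr1, 0.228% with dCcs1 in SC and 6.80% in SC-lys. For the other settings the share of all ORFs is not given here, so those counts have no background beside them. The other counts stayed within 1.5 times.

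Of the alternatives for named genes, 547 kept direction and call, 83 lost the call and 3 turned sign, for genes that had not been called. MRPL11 in dCcs1 against WT ranged from -0.0918 to 0.25 with 1 library left out. MRPL37 in the interaction of dCcs1 media ranged from -0.0746 to 0.31. Outside WT and H3H113N in SC the groups have 2 libraries each and the labels tie the numbers to nothing, so no such block of their own was run. Same-numbered H3H113N and parent libraries correlated at 0.623 in YPD, 0.131 in YPEG, 0.190 with dCtr1, 0.442 with dCcs1 in SC and 0.526 in SC-lys, while dCcs1 and WT in SC had 0.576 and -0.417. The replicate block moved the median of dCcs1 against WT to -0.11.

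With library totals, the median over all ORFs rose to between 0.18 and 0.30 in the H3H113N comparisons other than YPEG (0.02), and the members' median turned positive in YPD (0.10), SC (0.08) and dCtr1 (0.08). With 2 or 3 libraries a group, an absent call does not show equal levels.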
